A study of Homo sapiens with 9 samples.

Results

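SLC6A6, SLC51B, SLC23A1, SLC4A4, KCNJ16 and AQP3 encode 4 solute carriers, 1 potassium channel subunit and 1 aquaporin. They are 6 of the 60676 genes counted in the series. They were chosen by the size of their measured log2 fold changes in these same libraries, with 1 or both of the hairpins against LITATS1 set against a control hairpin, and no minimum was stated. Their levels and differences between these groups are therefore given as a description, without a test. RNA was sequenced from A549, an established epithelial line from a human lung adenocarcinoma, after transduction with 1 of 3 lentiviral short hairpin RNAs, in 3 libraries per group and 9 in all. shLITATS1-1 and shLITATS1-2 are separate hairpins against LITATS1, a long noncoding RNA known as an inhibitor of TGF-β signalling, and shNT is the non-targeting control. Cells of all 3 groups were kept for 2 days after transduction and then taken after another 3 days with 1 ng/mL puromycin, so the controls also carried a lentivirus and went through selection. All groups are transduced cells of 1 line, and nothing in the labels says whether the 3 libraries of a group came from separate transductions, so the errors and p-values cover only how far these libraries lie apart, which may be technical.

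The libraries held 24556848 to 24671296 fragments each, with 19610514 to 19989652 counted in genes. Levels are given as CPM, a gene's count relative to the size of its library, which was scaled by edgeR's TMM factors. LITATS1 itself had 3.33 ± 0.405 CPM with shLITATS1-1, 3.02 ± 0.321 CPM with shLITATS1-2 and 15.1 ± 1.51 CPM with shNT (SD, n = 3), which was 22.0% of the shNT mean with shLITATS1-1 and 19.96% with shLITATS1-2. All 9 epithelial and A549 markers, among them KRT8 and ALDH1A1, were at 1 CPM or more in every library, and their summed level was 23136 to 23652 CPM with shLITATS1-1, 12315 to 12762 CPM with shLITATS1-2 and 17050 to 17416 CPM with shNT. ALDH1A1 alone had 9821 ± 88.3 CPM with shLITATS1-1, 3521 ± 26.7 CPM with shLITATS1-2 and 6359 ± 111 CPM with shNT. Single markers did not all follow the sum. Against shNT, 5 rose and 2 fell with shLITATS1-1 (30.5% and 30.5% of all tested genes, edgeR adjusted p under 0.05). With shLITATS1-2, 2 rose and 6 fell (27.8% and 28.9%). The 6 include KRT8 (log2 fold change -0.14), whose call did not hold under scaling by library size (-0.03, edgeR adjusted p = 0.431). KRT19 rose with each hairpin, and AKR1B10 and AKR1C1 fell with each. Of 14 markers of blood, endothelial, muscle and stromal cells, 13 stayed under 1 CPM in every library, with CD3E and MYH1 among those at 0 throughout, and the summed level of all 14 was 3.00 to 3.95 CPM with shLITATS1-1, 6.36 to 7.10 CPM with shLITATS1-2 and 1.90 to 2.35 CPM with shNT. The exception was CD14, a monocyte marker, at 2.49 CPM with shLITATS1-1, 5.36 CPM with shLITATS1-2 and 1.40 CPM with shNT. Of 10 markers of alveolar type II cells, 7 stayed under 1 CPM, and the sum of all 10 was 105 to 112 CPM with shLITATS1-1, 90.2 to 96.7 CPM with shLITATS1-2 and 87.4 to 95.4 CPM with shNT. Nearly all of this sum was 1 gene, ABCA3, at 106 ± 3.72 CPM with shLITATS1-1, 91.7 ± 3.21 CPM with shLITATS1-2 and 89.5 ± 4.91 CPM with shNT. These marker sums differ between the groups, except that the alveolar type II sums of shLITATS1-2 and shNT overlapped. What part such differences have in the results below was not tested. In bulk RNA, fewer cells of one kind and less RNA per cell cannot be told apart.

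Solute carriers are secondary active or facilitative transporters that move small molecules across membranes, many of them driven by the sodium gradient. SLC6A6 takes up taurine, an organic osmolyte, with sodium and chloride. SLC23A1 takes up ascorbate with sodium, SLC4A4 is the electrogenic sodium bicarbonate cotransporter NBCe1, and SLC51B is the β subunit of the organic solute transporter that releases bile acids and steroid conjugates. KCNJ16 encodes Kir5.1, an inward rectifier subunit that forms pH-sensitive channels with KCNJ10 or KCNJ15, and AQP3 is an aquaglyceroporin that passes water and glycerol at the basolateral side of airway and other epithelia.

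On GRCh38, with GENCODE gene models of release 29, SLC6A6 (ENSG00000131389) lies at chr3:14402576-14489349 on the plus strand, SLC51B (ENSG00000186198) at chr15:65045370-65053396 on the plus strand and SLC23A1 (ENSG00000170482) at chr5:139367196-139384553 on the minus strand. SLC4A4 (ENSG00000080493) lies at chr4:71062667-71572087 on the plus strand, KCNJ16 (ENSG00000153822) at chr17:70053429-70135608 on the plus strand and AQP3 (ENSG00000165272) at chr9:33441154-33447633 on the minus strand. Exon bases shared with exons of another gene made up 2.90% of SLC6A6 (GRIP2), 6.38% of SLC51B (RASL12) and 0.820% of KCNJ16 (an unnamed gene), each on the opposite strand, and none of the other genes shared any. Whether the counting used strand is not given in the sources used here, and fragments from these overlaps are uncertain.

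The 250 bases upstream of the RefSeq start are shown for 3 genes with a single start in the RefSeq table (GRCh38.p14): SLC51B and SLC23A1, which were lower with each hairpin, and AQP3, which was lower with one and higher with the other. These RefSeq starts lie inside the GENCODE gene bodies given above. The SLC23A1 window lies wholly within its gene body, downstream of the GENCODE start, and the SLC51B and AQP3 windows run into theirs. Of the 6 genes, 5 had such an entry, with 11 windows in all, 5 of them for SLC4A4 and 3 for KCNJ16. Each is read 5′ to 3′ on the strand of its gene, and capitals mark matches, on either strand, to CAGAC (the SMAD box), CACCTG (an E-box bound by SNAI and ZEB factors), TGACTCA (the AP-1 site) or TATAAA (the TATA box). None of these motifs overlapped another in the 3 windows.
SLC51B, chr15:65045137-65045386, plus strand: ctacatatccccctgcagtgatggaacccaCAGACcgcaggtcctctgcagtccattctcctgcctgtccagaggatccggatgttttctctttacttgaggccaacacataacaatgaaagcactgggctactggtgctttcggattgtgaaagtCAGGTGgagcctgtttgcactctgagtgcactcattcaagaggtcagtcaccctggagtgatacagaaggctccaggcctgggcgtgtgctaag
SLC23A1, chr5:139383298-139383547, minus strand: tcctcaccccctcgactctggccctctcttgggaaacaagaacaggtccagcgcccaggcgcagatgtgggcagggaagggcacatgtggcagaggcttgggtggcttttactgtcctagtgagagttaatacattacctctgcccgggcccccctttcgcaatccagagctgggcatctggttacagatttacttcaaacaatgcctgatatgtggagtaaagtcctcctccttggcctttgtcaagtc
AQP3, chr9:33447594-33447843, minus strand: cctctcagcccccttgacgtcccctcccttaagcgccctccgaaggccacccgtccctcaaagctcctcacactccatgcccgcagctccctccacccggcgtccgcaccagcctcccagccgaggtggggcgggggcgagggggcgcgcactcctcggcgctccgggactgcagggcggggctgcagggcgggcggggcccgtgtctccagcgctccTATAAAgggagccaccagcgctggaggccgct
The SLC51B window held CAGAC at -220 to -216 and the reverse complement of CACCTG at -94 to -89, counted from the start. The SLC23A1 window held none of the 4 motifs, and the AQP3 window held TATAAA at -32 to -27. Among the 35116 windows of the table, 38.0% held CAGAC, 17.5% CACCTG, 4.20% TGACTCA and 10.7% TATAAA. The AQP3 window was the richest of the 3 in GC and CpG, with 73.6% GC and 23 CpG, against 52.8% and 4 in SLC51B and 54.4% and 5 in SLC23A1, beside medians of 58% and 11 over all windows. These matches are letters in the window and say nothing on whether a factor binds there.

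SLC6A6, the taurine transporter, was the most abundant of the 6 genes in every group, also per length of exon. It had 116, 122 and 118 CPM with shLITATS1-1, 75.4, 74.4 and 76.2 CPM with shLITATS1-2, and 270.5, 265 and 252 CPM with shNT. Every library with a LITATS1 hairpin lay below every shNT library, and the shLITATS1-2 libraries were the lowest. The log2 fold change was -1.15 (SE 0.034) for shLITATS1-1 and -1.80 (SE 0.035) for shLITATS1-2, which left 45.1% ± 1.11 of the mean shNT level with shLITATS1-1 and 28.7% ± 0.352 with shLITATS1-2 (SD, n = 3). The value for shLITATS1-1 minus shLITATS1-2 was 0.65 (SE 0.038). These levels rest on 2204 to 2308 fragments per library with shLITATS1-1, 1545 to 1586 with shLITATS1-2 and 4913 to 5279 with shNT.

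SLC51B, the β subunit of the bile acid exporter, had 3.79, 2.79 and 3.42 CPM with shLITATS1-1, 3.00, 3.27 and 2.45 CPM with shLITATS1-2, and 6.81, 7.32 and 7.96 CPM with shNT. The libraries of the 2 LITATS1 hairpins overlapped each other, and all lay below the shNT libraries. The log2 fold change was -1.14 (SE 0.13) for shLITATS1-1 and -1.34 (SE 0.13) for shLITATS1-2, with 0.20 (SE 0.16) between the hairpins. These levels rest on 53 to 72 fragments per library with shLITATS1-1, 51 to 68 with shLITATS1-2 and 133 to 155 with shNT.

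SLC23A1, the ascorbate transporter SVCT1, had 5.57, 4.58 and 4.48 CPM with shLITATS1-1, 3.53, 3.66 and 3.17 CPM with shLITATS1-2, and 9.73, 10.3 and 12.1 CPM with shNT. The 3 groups did not overlap, with shNT highest and shLITATS1-2 lowest, the same order as for SLC6A6. The log2 fold change was -1.13 (SE 0.11) for shLITATS1-1 and -1.63 (SE 0.12) for shLITATS1-2, and 0.50 (SE 0.14) between the hairpins.

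SLC4A4, the bicarbonate cotransporter, had 13.1, 14.96 and 14.7 CPM with shLITATS1-1, 1.35, 2.26 and 2.40 CPM with shLITATS1-2, and 11.0, 10.1 and 11.5 CPM with shNT. The groups did not overlap: shLITATS1-1 was slightly above shNT, and shLITATS1-2 was far below it. The log2 fold change was 0.39 (SE 0.090) for shLITATS1-1 and -2.43 (SE 0.13) for shLITATS1-2, or 131% ± 9.32 of the mean shNT level with shLITATS1-1 and 18.5% ± 5.26 with shLITATS1-2. The value between the hairpins was 2.82 (SE 0.13). With shLITATS1-2, SLC4A4 was counted by 28 to 50 fragments per library, against 197 to 224 with shNT, and its fold change was rank 6 from the lowest of all tested genes.

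KCNJ16, the Kir5.1 subunit, had 28.9, 27.4 and 28.8 CPM with shLITATS1-1, 3.14, 3.23 and 2.40 CPM with shLITATS1-2, and 7.99, 7.11 and 6.22 CPM with shNT. Its level was thus highest with shLITATS1-1 and lowest with shLITATS1-2, with no overlap between groups. The log2 fold change was 2.00 (SE 0.083) for shLITATS1-1 and -1.28 (SE 0.13) for shLITATS1-2. Between the hairpins the value was 3.28 (SE 0.098), the largest of the 318 tested carrier and channel genes and rank 16 from the highest of all tested genes.

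AQP3, the aquaglyceroporin, ran the other way. It had 3.52, 3.69 and 3.85 CPM with shLITATS1-1, 24.9, 23.8 and 24.5 CPM with shLITATS1-2, and 13.3, 12.6 and 15.4 CPM with shNT. The groups did not overlap, with shLITATS1-1 lowest and shLITATS1-2 highest. The log2 fold change was -1.90 (SE 0.11) for shLITATS1-1 and 0.83 (SE 0.072) for shLITATS1-2, or 26.8% ± 1.17 of the mean shNT level with shLITATS1-1 and 177% ± 4.01 with shLITATS1-2. Between the hairpins it was -2.73 (SE 0.096), the lowest value among the 318 carrier and channel genes and rank 8 from the lowest of all tested genes.

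**Figure D1:**
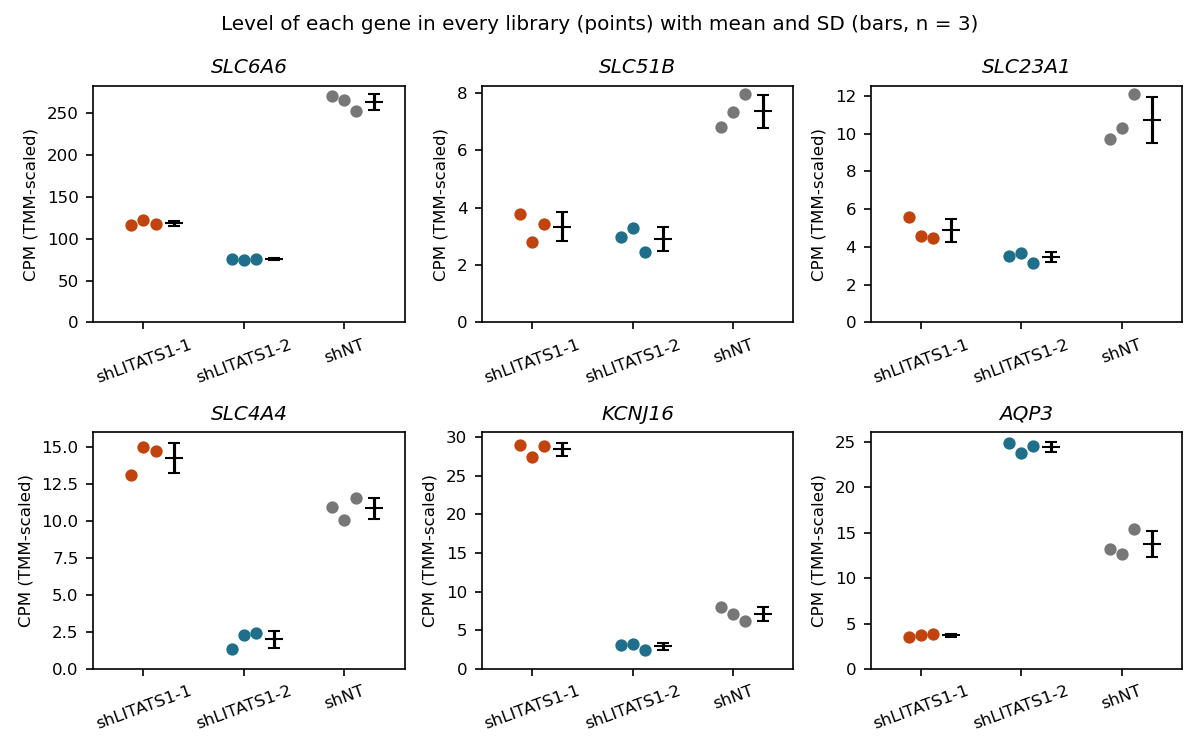
Each panel plots the TMM-scaled CPM of 1 gene in the 9 libraries (points) with the mean and SD of each group (bars, n = 3), on axes that start at 0. SLC6A6, SLC51B and SLC23A1 are lower with each LITATS1 hairpin than with shNT, whereas SLC4A4, KCNJ16 and AQP3 lie on opposite sides of shNT with the 2 hairpins. Of all 15500 tested genes, 2481 were called lower with both hairpins and 1397 in opposite directions (edgeR adjusted p under 0.05).

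Levels of different genes were compared after division by exon length, in CPM per kb. With shLITATS1-1 the order was SLC6A6 (14.3), KCNJ16 (4.48), SLC51B (3.55), SLC23A1 (1.52), SLC4A4 (1.48) and AQP3 (1.25), and SLC23A1 and SLC4A4 overlapped between libraries. With shLITATS1-2 it was SLC6A6 (9.13), AQP3 (8.28), SLC51B (3.09), SLC23A1 (1.08), KCNJ16 (0.461) and SLC4A4 (0.209), with no overlap between neighbours. With shNT it was SLC6A6 (31.8), SLC51B (7.84), AQP3 (4.67), SLC23A1 (3.34), SLC4A4 (1.13) and KCNJ16 (1.12), and SLC4A4 and KCNJ16 overlapped. SLC6A6 kept the top place in each group, while AQP3 was last with shLITATS1-1 and next to the top with shLITATS1-2.

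**Figure D2:**
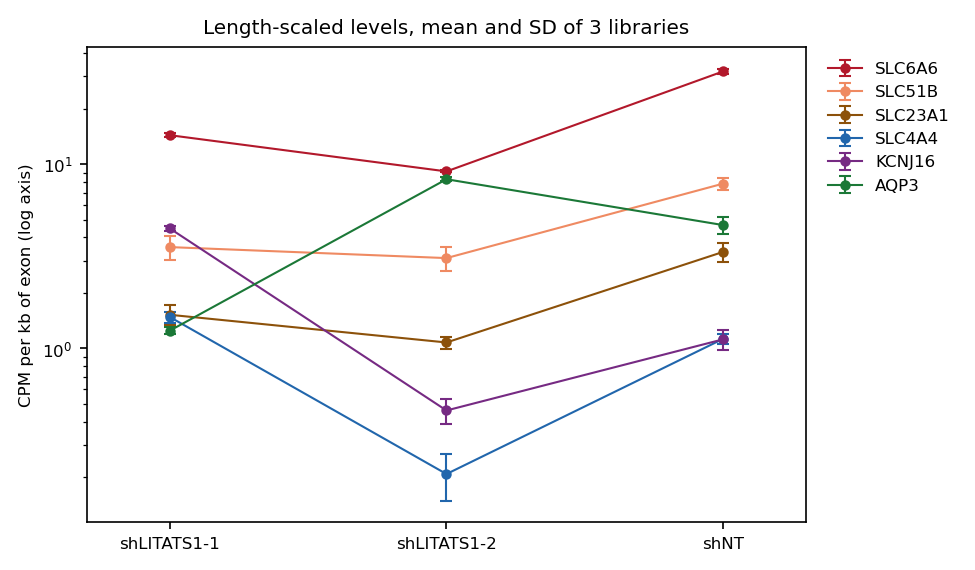
Mean CPM per kb of exon (log axis) with SD over 3 libraries, for the 6 genes in the 3 groups. AQP3 is at 1.25 CPM per kb with shLITATS1-1 and 8.28 with shLITATS1-2, where KCNJ16 is at 4.48 with shLITATS1-1 and 0.461 with shLITATS1-2.

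The wider group of carriers and channels held 318 tested genes by symbol (SLC, KCN, CLCN, CLIC, AQP, SCN, CACN, TRP, ANO and LRRC8). Without the 6 genes, 136 of 312 rose and 77 fell with shLITATS1-1 against shNT (edgeR quasi-likelihood test, adjusted p under 0.05), with a median log2 fold change of 0.14. Over all 15500 tested genes 61% were called in this comparison, 30.5% higher and 30.5% lower, with a median of -0.01. With shLITATS1-2 against shNT, 108 of 312 rose and 93 fell, with a median of 0.01, where 56.7% of all tested genes were called, 27.8% higher and 28.9% lower. The 136 include SLC6A14, KCNJ15, SLC2A14, KCNJ8 and KCNQ1, which passed the count filter only through the shLITATS1-1 libraries. The 108 include AQP7 and TRPV3, which passed it only through those of shLITATS1-2. How many more of the 312 did so was not counted. Scaling by library size alone gave 129 higher and 60 lower of the 312 with shLITATS1-2, and 6058 higher and 2967 lower over all genes in place of 4302 and 4485. Between the hairpins 110 rose and 92 fell with shLITATS1-1 relative to shLITATS1-2, where 60.9% of all tested genes were called, 30.2% higher and 30.7% lower. Scaling by library size gave 3293 higher and 6912 lower over all genes in this comparison, in place of 4684 and 4755. Called with both hairpins against shNT, 68 of the 312 rose, 38 fell and 46 went in opposite directions. Over all 15500 tested genes these counts were 2362, 2481 and 1397.

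Within this group AQP3 was the lowest gene with shLITATS1-1 and SLC4A4 the lowest with shLITATS1-2. The 6 genes were chosen by the size of their changes in these libraries, so their ranks here and above are descriptions. At least 2-fold lower calls made up 2.54% of all tested genes with shLITATS1-1 and 2.17% with shLITATS1-2, and at least 2-fold higher calls made up 6.14% with shLITATS1-1 and 3.78% with shLITATS1-2. Between the hairpins, 5.27% of all tested genes were at least 2-fold higher and 3.05% at least 2-fold lower with shLITATS1-1 than with shLITATS1-2. Other strongly lowered genes of the group with shLITATS1-1 were the inward rectifier KCNJ2, the voltage-gated subunit KCNF1 (log2 fold change -1.47, SE 0.095, edgeR adjusted p = 1.35e-22), KCNJ11, a pore subunit of ATP-sensitive channels at low counts (-1.36, SE 0.37, edgeR adjusted p = 0.000991), and the background potassium channel KCNK5 (-1.27, SE 0.10, edgeR adjusted p = 9.19e-18). With shLITATS1-2 they were KCNJ8, whose call did not hold without shNT replicate 3 (edgeR adjusted p = 0.0772), SLC12A2 and the monocarboxylate-family carrier SLC16A14 (-1.40, SE 0.25, edgeR adjusted p = 1.06e-06). The highest values were those of SLC6A14, KCNJ15 and SLC2A14 with shLITATS1-1 and of TRPV3 (2.06, SE 0.29), AQP1 and the chloride channel ANO1 with shLITATS1-2. SLC6A14, KCNJ15 and SLC2A14 would not have passed the count filter without the shLITATS1-1 libraries, TRPV3 not without those of shLITATS1-2 and AQP1 not without the LITATS1 hairpins, so that their values are descriptions. ANO1 had 0.930 ± 0.161 CPM with shLITATS1-1, 3.92 ± 0.455 CPM with shLITATS1-2 and 1.06 ± 0.107 CPM with shNT, a rise of 1.88 on the log2 scale (SE 0.20) with shLITATS1-2 (edgeR adjusted p = 2.33e-13) beside -0.19 (SE 0.27) with shLITATS1-1 (edgeR adjusted p = 0.572).

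**Figure D3:**
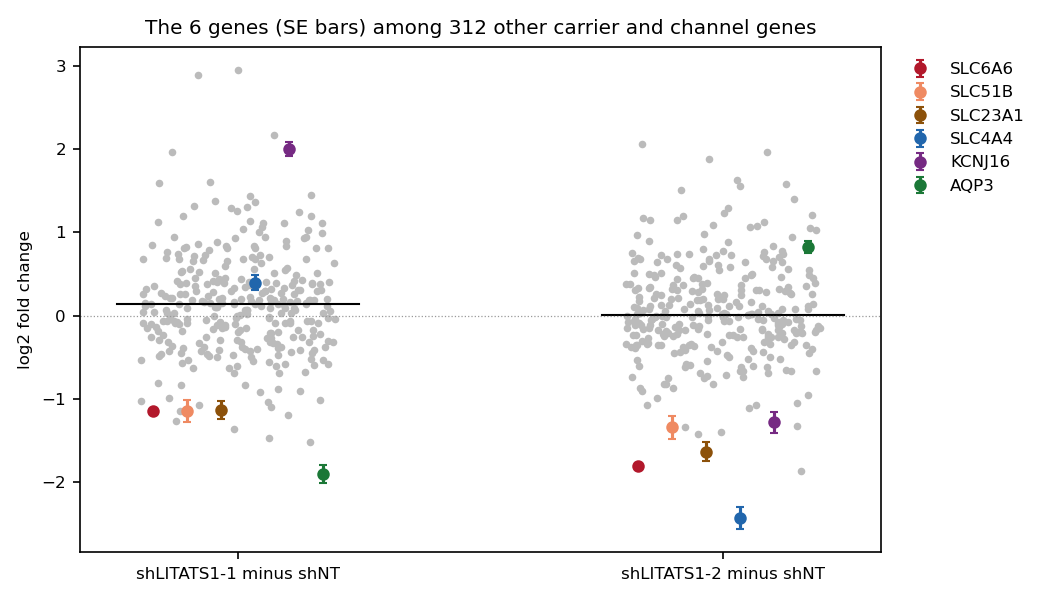
Log2 fold change against shNT for 312 other tested carrier and channel genes (grey points, spread sideways at random, black line at the median) and the 6 genes (coloured points with SE). AQP3 is the lowest point with shLITATS1-1 at -1.90 and SLC4A4 the lowest with shLITATS1-2 at -2.43, where the 6 genes were chosen by the size of such changes.

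For the partners of SLC6A6, 16 of 20 other genes of osmolyte transport, taurine synthesis and volume regulation were tested. With shLITATS1-1, 12 rose and 2 fell (median 0.20), where 30.5% of all tested genes rose and 30.5% fell. With shLITATS1-2, 4 rose and 7 fell (median -0.11), or 4 and 4 under scaling by library size, where 27.8% of all tested genes rose and 28.9% fell, so that the share that rose was near that of all genes. LRRC8A, the obligatory subunit of the volume-regulated anion channel that also releases taurine, had 113 ± 5.04 CPM with shLITATS1-1, 165 ± 4.70 CPM with shLITATS1-2 and 62.4 ± 1.13 CPM with shNT, rises on the log2 scale of 0.85 with shLITATS1-1 (SE 0.040, edgeR adjusted p = 5.4e-30) and 1.40 with shLITATS1-2 (SE 0.039, edgeR adjusted p = 1.34e-43). LRRC8C, another subunit of this channel, rose by 1.12 (SE 0.052, edgeR adjusted p = 1.56e-30) with shLITATS1-1 and by 0.31 (SE 0.056, edgeR adjusted p = 1.48e-06) with shLITATS1-2. SLC12A2, the sodium-potassium-chloride cotransporter NKCC1, had 119.9 ± 2.75 CPM with shLITATS1-1, 56.1 ± 3.50 CPM with shLITATS1-2 and 150.003 ± 5.22 CPM with shNT. It fell by 0.32 (SE 0.037, edgeR adjusted p = 7.3e-12) with shLITATS1-1 and by 1.42 (SE 0.040, edgeR adjusted p = 8.21e-43) with shLITATS1-2. NFAT5, the transcription factor of the osmotic response, was at -0.04 (SE 0.051, edgeR adjusted p = 0.496) with shLITATS1-1 and -0.03 (SE 0.050, edgeR adjusted p = 0.663) with shLITATS1-2 and passed the test with neither.

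BAAT, which conjugates bile acids to taurine or glycine, was 41.9 ± 2.05 CPM with shLITATS1-1, 11.3 ± 1.13 CPM with shLITATS1-2 and 12.6 ± 1.16 CPM with shNT. It rose by 1.73 (SE 0.069, edgeR adjusted p = 2.69e-34) with shLITATS1-1, and its value was -0.16 (SE 0.086, edgeR adjusted p = 0.101) with shLITATS1-2, with an adjusted p of 0.0208 without shLITATS1-2 replicate 3 and 0.0337 without shNT replicate 3. CSAD, an enzyme of taurine synthesis, rose by 0.50 (SE 0.12, edgeR adjusted p = 0.000173) with shLITATS1-1 and stood at 0.07 (SE 0.12, edgeR adjusted p = 0.646) with shLITATS1-2. Of 18 other SLC6 genes 7 were tested, with 4 higher and 1 lower with shLITATS1-1 (30.5% and 30.5% of all tested genes) and 3 higher and 2 lower with shLITATS1-2 (27.8% and 28.9%). The higher counts include SLC6A14 with each hairpin. SLC6A14, an amino acid carrier of broad range, was at 20 to 26 fragments per library with shLITATS1-1, 8 to 10 with shLITATS1-2 and 2 to 4 with shNT, and it would not have passed the count filter without the shLITATS1-1 libraries, so its fitted log2 values of 2.95 with shLITATS1-1 (SE 0.42) and 1.51 with shLITATS1-2 (SE 0.52) are descriptions. The glycine transporter SLC6A9 fell by 0.38 (SE 0.069, edgeR adjusted p = 2.27e-06) with shLITATS1-1. With shLITATS1-2 SLC6A9 did not pass the test, but it was higher by 0.25 under scaling by library size (edgeR adjusted p = 0.000525). The creatine transporter SLC6A8 fell by 0.37 (SE 0.090, edgeR adjusted p = 0.000291) with shLITATS1-2. SLC6A8 rose by 0.21 (edgeR adjusted p = 0.0284) with shLITATS1-1, a call that did not hold in DESeq2 (DESeq2 adjusted p = 0.0802).

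SLC51B needs SLC51A, the α subunit, to reach the membrane. SLC51A had 1.74, 1.58 and 1.90 CPM with shLITATS1-1, 1.06, 1.11 and 1.20 CPM with shLITATS1-2, and 0.512, 0.921 and 1.28 CPM with shNT. It rose by 0.94 on the log2 scale with shLITATS1-1 (SE 0.26, edgeR adjusted p = 0.00116), and its value with shLITATS1-2 was 0.31 (SE 0.28, edgeR adjusted p = 0.353), where the shNT libraries enclosed those of shLITATS1-2. SLC51B had -1.14 with shLITATS1-1 and -1.34 with shLITATS1-2. Per kb of exon, SLC51A stood at 0.328 CPM with shLITATS1-1, 0.212 with shLITATS1-2 and 0.171 with shNT, below SLC51B in each group.

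Of 23 other genes of bile acid transport and sensing 11 were tested. With shLITATS1-1, 9 rose and 2 fell (median 0.67), where 30.5% of all tested genes rose and 30.5% fell, and 5 rose with a filter of 50 counts. The 9 include FABP6, an ileal bile acid binding protein, which would not have passed the count filter without the shLITATS1-1 libraries. With shLITATS1-2, 3 rose and 3 fell (median 0.00457), or 5 and 0 under scaling by library size, and these shares of 27.3% each were near the 27.8% and 28.9% of all tested genes. The count of 3 higher rested on single libraries: it was 0 without shLITATS1-2 replicate 2 and without shNT replicate 2, and 1 without shLITATS1-2 replicate 3 and without shNT replicate 1. The efflux pump ABCC3 rose by 0.43 (SE 0.028, edgeR adjusted p = 3.7e-22) with shLITATS1-1 and was at 0.01 (SE 0.028, edgeR adjusted p = 0.794) with shLITATS1-2. The uptake carrier SLCO1B1 had 2.16 ± 0.409 CPM with shLITATS1-1, 0.674 ± 0.299 CPM with shLITATS1-2 and 0.700 ± 0.262 CPM with shNT, a rise of 1.61 with shLITATS1-1 (SE 0.27, edgeR adjusted p = 2.88e-07). SLCO4A1, an organic anion carrier, fell by 1.00 with shLITATS1-1 (SE 0.079, edgeR adjusted p = 3.15e-18). With shLITATS1-2 it was at -0.16 (edgeR adjusted p = 0.0423), a call that did not hold in DESeq2 (DESeq2 adjusted p = 0.128). SLC10A2, the ileal bile acid uptake carrier, was at 0 fragments in all 9 libraries.

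SLC23A2, the other sodium-dependent ascorbate carrier, had 173, 174 and 180.1 CPM with shLITATS1-1, 134, 131 and 133 CPM with shLITATS1-2, and 151, 135 and 149 CPM with shNT. It rose by 0.28 with shLITATS1-1 (SE 0.035, edgeR adjusted p = 2.78e-10) and fell by 0.13 with shLITATS1-2 (SE 0.036, edgeR adjusted p = 0.00174), where scaling by library size gave -0.01 (edgeR adjusted p = 0.757). SLC23A2 was at 23.4 CPM per kb with shLITATS1-1, 17.7 with shLITATS1-2 and 19.3 with shNT, above SLC23A1 in each group. Of 12 other genes of ascorbate transport and recycling 8 were tested, with 4 higher and 2 lower with shLITATS1-1 (30.5% and 30.5% of all tested genes) and 4 higher and 3 lower with shLITATS1-2 (27.8% and 28.9%). SLC2A1, a glucose carrier that also takes up oxidised ascorbate, rose by 0.19 (SE 0.031, edgeR adjusted p = 2.75e-07) with shLITATS1-1 and by 0.32 (SE 0.030, edgeR adjusted p = 4.37e-15) with shLITATS1-2. CYBRD1, an ascorbate-dependent ferric reductase, fell by 0.38 with shLITATS1-1 (SE 0.038, edgeR adjusted p = 9.76e-14) and by 0.29 with shLITATS1-2 (SE 0.038, edgeR adjusted p = 3.9e-10).

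For SLC4A4, 23 of 40 other genes of bicarbonate transport, carbonic anhydrases and proton exchange were tested. With shLITATS1-1, 6 rose and 8 fell (median -0.09), and these shares of 26.1% and 34.8% were near the 30.5% and 30.5% of all tested genes. The 6 include the carbonic anhydrase CA14, which passed the count filter only through the shLITATS1-1 libraries. With shLITATS1-2, 5 rose and 12 fell (median -0.25), or 9 fell under scaling by library size, where 27.8% of all tested genes rose and 28.9% fell. SLC4A7, the electroneutral sodium bicarbonate cotransporter, had 160.1, 169 and 169 CPM with shLITATS1-1, 77.6, 83.9 and 85.8 CPM with shLITATS1-2, and 116, 99.2 and 100.1 CPM with shNT. It rose by 0.66 with shLITATS1-1 (SE 0.044, edgeR adjusted p = 8.61e-16) and fell by 0.35 with shLITATS1-2 (SE 0.047, edgeR adjusted p = 4.41e-08), where SLC4A4 had 0.39 with shLITATS1-1 and -2.43 with shLITATS1-2.

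The anion exchanger SLC4A2 fell by 0.31 (SE 0.032, edgeR adjusted p = 1.12e-13) with shLITATS1-1 and was at -0.05 (SE 0.031, edgeR adjusted p = 0.152) with shLITATS1-2, with an adjusted p of 0.0454 without shNT replicate 3. SLC4A8, a sodium-driven chloride bicarbonate exchanger of low level, fell by 1.14 with shLITATS1-1 (SE 0.21, edgeR adjusted p = 2.31e-06) and by 1.33 with shLITATS1-2 (SE 0.21, edgeR adjusted p = 9.63e-08). Among the carbonic anhydrases, the abundant membrane enzyme CA12 fell by 0.21 with shLITATS1-1 (SE 0.028, edgeR adjusted p = 4.44e-10) and by 0.54 with shLITATS1-2 (SE 0.028, edgeR adjusted p = 8.15e-28). CA9, a hypoxia-induced membrane enzyme, had 3.70 ± 0.951 CPM with shLITATS1-1, 1.12 ± 0.154 CPM with shLITATS1-2 and 2.96 ± 0.154 CPM with shNT. It fell by 1.39 with shLITATS1-2 (SE 0.21, edgeR adjusted p = 3.34e-08), and its value with shLITATS1-1 was 0.32 (SE 0.17, edgeR adjusted p = 0.0838), or 0.45 (edgeR adjusted p = 0.0229) without shLITATS1-1 replicate 3.

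The usual partner of KCNJ16, KCNJ10, was at no more than 2 fragments in any library and was not tested. KCNJ15, the other partner, had 20 to 24 fragments per library with shLITATS1-1, 8 to 12 with shLITATS1-2 and 2 to 4 with shNT, and it would not have passed the count filter without the shLITATS1-1 libraries. Its fitted log2 values of 2.88 with shLITATS1-1 (SE 0.42) and 1.56 with shLITATS1-2 (SE 0.52), set against a level near 0, are descriptions. Per kb of exon, KCNJ15 stood at 0.114 CPM with shLITATS1-1, 0.0450 with shLITATS1-2 and 0.0149 with shNT, below KCNJ16 in each group. Of 15 other KCNJ genes 7 were tested, with 3 higher and 3 lower with shLITATS1-1 (30.5% and 30.5% of all tested genes), and 2 higher and 2 lower with shLITATS1-2, where 28.6% each was near the 27.8% and 28.9% of all tested genes. The higher counts include KCNJ15 with each hairpin and KCNJ8 with shLITATS1-1. Both genes passed the count filter only through the shLITATS1-1 libraries. KCNJ6, a G protein-gated subunit, rose by 1.31 with shLITATS1-1 (SE 0.080, edgeR adjusted p = 5.71e-24) and by 0.58 with shLITATS1-2 (SE 0.087, edgeR adjusted p = 2.82e-08). KCNJ8, a pore subunit of ATP-sensitive channels, was at 14 to 20 fragments per library with shLITATS1-1, 1 to 4 with shLITATS1-2 and 6 to 13 with shNT, and it too would not have passed the count filter without the shLITATS1-1 libraries. Its value was 1.14 with shLITATS1-1 (SE 0.36), given as a description, and it fell by 1.87 with shLITATS1-2 (SE 0.59, edgeR adjusted p = 0.00394). Without shNT replicate 3 its value with shLITATS1-2 was -1.40 and did not pass the test (edgeR adjusted p = 0.0772).

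KCNJ2, which encodes the classical inward rectifier Kir2.1, lies 33065 bases from KCNJ16. It had 1.74, 1.42 and 2.05 CPM with shLITATS1-1, 2.03, 3.23 and 3.22 CPM with shLITATS1-2, and 5.38, 4.81 and 4.73 CPM with shNT. All libraries with a LITATS1 hairpin lay below those with shNT, and the libraries of the 2 LITATS1 hairpins overlapped. KCNJ2 fell by 1.51 with shLITATS1-1 (SE 0.17, edgeR adjusted p = 6.82e-12), where the neighbouring KCNJ16 had a value of 2.00, and by 0.81 with shLITATS1-2 (SE 0.15, edgeR adjusted p = 4.45e-06), where KCNJ16 had -1.28.

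Of 13 other aquaporins 3 were tested. AQP1, a water channel, was at 13 to 24 fragments per library with shLITATS1-1, 15 to 23 with shLITATS1-2 and 3 to 7 with shNT. No shNT library reached the count filter, so its values of 1.96 with shLITATS1-1 (SE 0.41) and 1.96 with shLITATS1-2 (SE 0.40) are descriptions. AQP7, an aquaglyceroporin 38472 bases from AQP3, had 4 to 5 fragments per library with shLITATS1-1, 12 to 15 with shLITATS1-2 and 4 to 7 with shNT. It would not have passed the count filter without the shLITATS1-2 libraries, and its values of -0.24 with shLITATS1-1 (SE 0.53) and 1.09 with shLITATS1-2 (SE 0.41) are descriptions. AQP11 was at 0.12 with shLITATS1-1 (SE 0.15, edgeR adjusted p = 0.483) and at -0.0047 with shLITATS1-2 (SE 0.15, edgeR adjusted p = 0.982).

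Of 13 other genes of glycerol handling 10 were tested, with 4 higher and 2 lower with shLITATS1-1 and 3 higher and 3 lower with shLITATS1-2, or 4 and 2 under scaling by library size. The 60% called in each comparison was near the 61% of all tested genes with shLITATS1-1 and 56.7% with shLITATS1-2. The 3 higher with shLITATS1-2 include AQP7, which passed the count filter only through the shLITATS1-2 libraries. The monoglyceride lipase MGLL rose by 0.30 (SE 0.035, edgeR adjusted p = 7.06e-12) with shLITATS1-1 and fell by 0.66 (SE 0.036, edgeR adjusted p = 4.33e-26) with shLITATS1-2. The lipase PNPLA2 rose by 0.37 with shLITATS1-1 (SE 0.058, edgeR adjusted p = 1.14e-07) and by 0.68 with shLITATS1-2 (SE 0.056, edgeR adjusted p = 1.54e-17). LIPE, which cleaves diglycerides, fell by 1.17 with shLITATS1-1 (SE 0.19, edgeR adjusted p = 1.76e-07) and was at -0.12 with shLITATS1-2 (SE 0.16, edgeR adjusted p = 0.525).

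**Figure D4:**
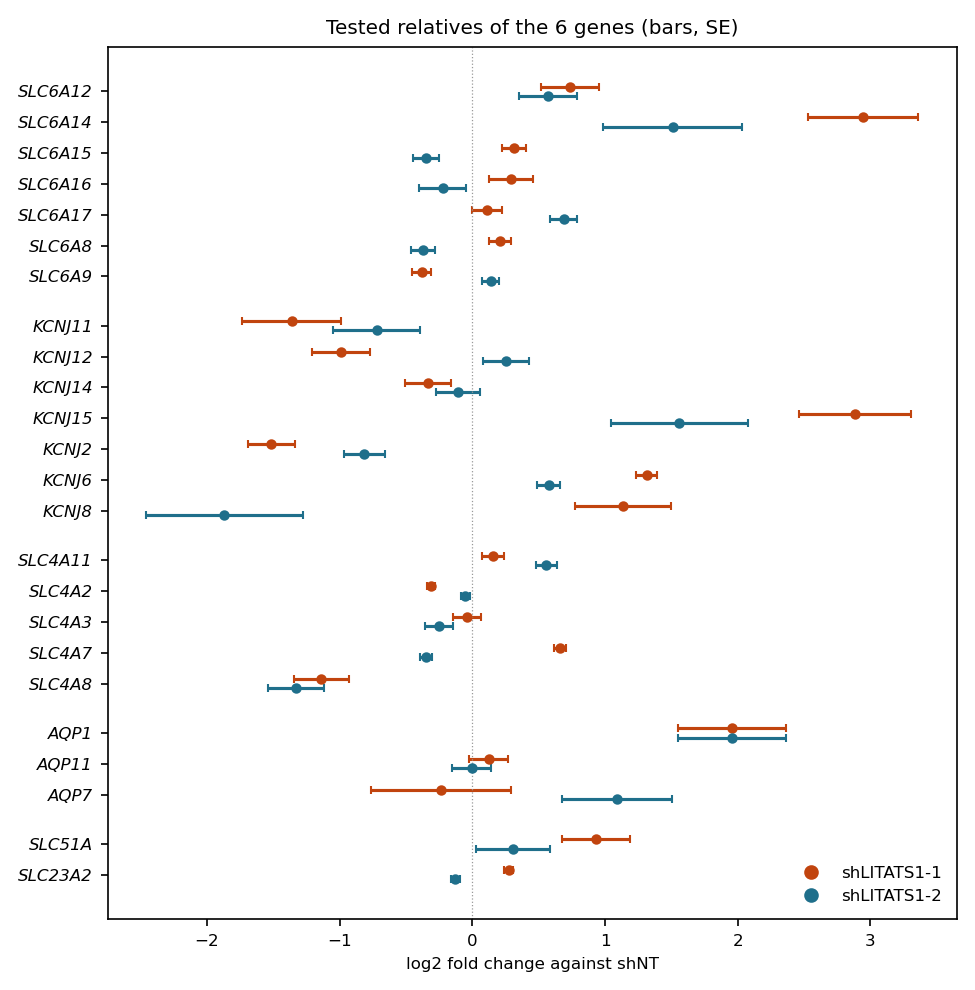
Log2 fold change against shNT with SE for tested relatives of the 6 genes, in families from the top (SLC6, KCNJ, SLC4, aquaporins, then SLC51A and SLC23A2), with shLITATS1-1 drawn above shLITATS1-2. Values run from 2.95 for SLC6A14 with shLITATS1-1 to -1.87 for KCNJ8 with shLITATS1-2, and SLC6A8, KCNJ8 and SLC4A7 are among the genes on opposite sides of 0 with the 2 hairpins.

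Airway epithelia move chloride, bicarbonate and sodium through a known set of channels and carriers, of which 20 of 27 other genes were tested. With shLITATS1-1, 11 rose and 5 fell (3 fell without shNT replicate 3), where 30.5% of all tested genes rose and 30.5% fell. The 11 include KCNQ1 (edgeR adjusted p = 0.0463), which passed the count filter only through the shLITATS1-1 libraries. Its call did not hold in DESeq2 (DESeq2 adjusted p = 0.147) or under scaling by library size (edgeR adjusted p = 0.0508). With shLITATS1-2, 8 rose and 7 fell, where 27.8% of all tested genes rose and 28.9% fell. The higher counts include CFTR with each hairpin. CFTR, the cyclic AMP-regulated anion channel, was at 15 to 21 fragments per library with shLITATS1-1, 32 to 45 with shLITATS1-2 and 7 to 8 with shNT. No shNT library reached the count filter, so its values of 1.23 with shLITATS1-1 (SE 0.35) and 2.29 with shLITATS1-2 (SE 0.29) are descriptions. KCNN4, a calcium-activated potassium channel, rose by 0.68 with shLITATS1-1 (SE 0.045, edgeR adjusted p = 2.77e-22) and by 1.17 with shLITATS1-2 (SE 0.043, edgeR adjusted p = 4.04e-36). SCNN1A, the α subunit of the epithelial sodium channel, rose by 0.94 with shLITATS1-1 (SE 0.15, edgeR adjusted p = 1.78e-07) and fell by 0.61 with shLITATS1-2 (SE 0.19, edgeR adjusted p = 0.00436).

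Among other carriers, 19 of 27 amino acid carriers were tested, with 6 higher and 5 lower with shLITATS1-1 and 5 higher and 6 lower with shLITATS1-2, or 8 and 2 under scaling by library size. The 57.9% called in each comparison was near the 61% of all tested genes with shLITATS1-1 and 56.7% with shLITATS1-2. Of 24 sugar carriers 12 were tested, with 6 higher and 3 lower with shLITATS1-1 (30.5% and 30.5% of all tested genes) and 6 higher and 4 lower with shLITATS1-2 (27.8% and 28.9%). The count of 6 higher with shLITATS1-1 was 3 at a threshold of 0.01, and it includes SLC2A14, which passed the count filter only through the shLITATS1-1 libraries. The count of 6 higher with shLITATS1-2 was 3 without shLITATS1-2 replicate 2 and without shLITATS1-2 replicate 3. Both counts include SLC5A10, which would not have passed the count filter without the shLITATS1-1 libraries or without those of shLITATS1-2.

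**Figure D5:**
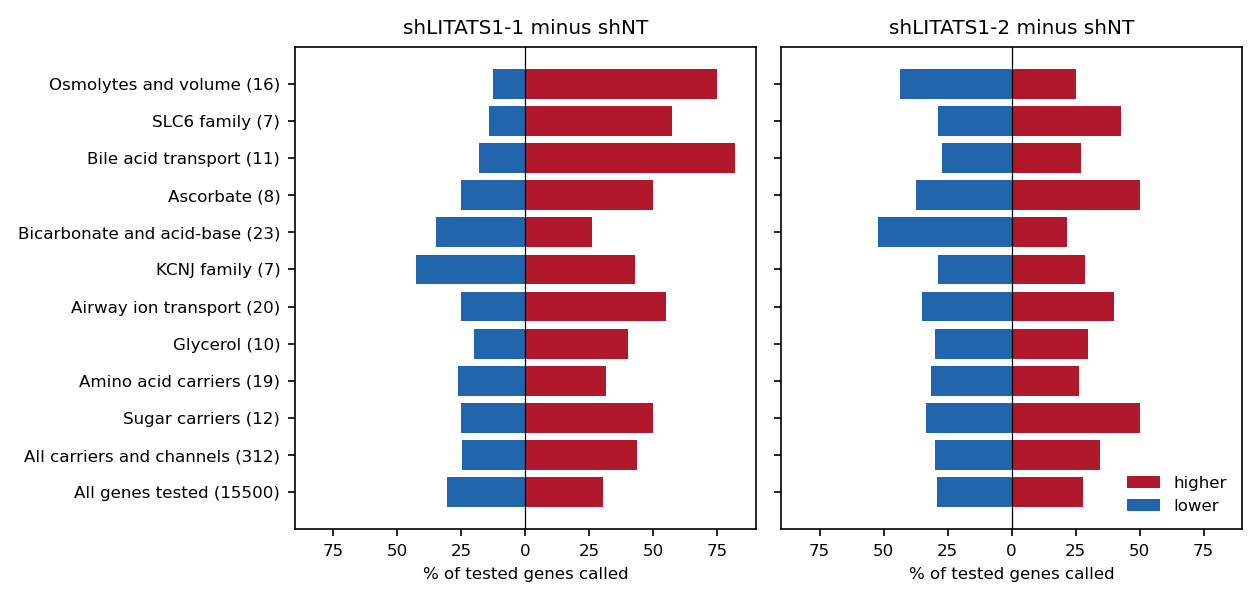
Share of tested genes called higher (red, to the right) or lower (blue, to the left) against shNT in each list, with the number tested in parentheses and all tested genes at the bottom. The longest bars are bile acid transport with shLITATS1-1, at 9 of 11 genes higher (5 with a filter of 50 counts) against 30.5% of all genes, and bicarbonate genes with shLITATS1-2, at 12 of 23 lower (9 under scaling by library size) against 28.9%.

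Likeness of pattern was measured as the root mean square difference in log2 CPM over the 9 libraries, each gene centred on its shNT mean, for 12132 genes with a symbol, and is a description. Within the 6 genes the closest pairs were SLC51B with SLC23A1 (0.187) and SLC6A6 with SLC23A1 (0.188), and the farthest was KCNJ16 with AQP3 (2.54). The closest gene of all to SLC6A6 was GPNMB, a lysosomal and melanosomal glycoprotein (0.130), and the closest to SLC51B and to SLC23A1 was SMCO4 (0.142 and 0.143). The closest to SLC4A4 was SPCS3, a signal peptidase subunit (0.284), followed by the complement component C5 (0.289) and NTAN1 (0.310). The matrix protein gene CCDC80 was closest to KCNJ16 (0.231), followed by NTS, the neurotensin precursor (0.317), and SPARC (0.489). The potassium channel subunit KCNF1 was closest to AQP3 (0.275), followed by the phosphatase PTPRH (0.336) and SYP (0.394).

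KCNF1 had 5.73, 5.48 and 5.22 CPM with shLITATS1-1, 25.8, 23.6 and 23.3 CPM with shLITATS1-2, and 14.4, 15.7 and 15.4 CPM with shNT, the same order of groups as AQP3 with no overlap. CCDC80 had 155 ± 6.65 CPM with shLITATS1-1, 21.9 ± 0.483 CPM with shLITATS1-2 and 42.9 ± 0.475 CPM with shNT, the order of KCNJ16.

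Within 100 kb of the 6 genes, 58 other genes are annotated and 23 were tested. With shLITATS1-1, 3 rose and 7 fell, beside 30.5% and 30.5% of all tested genes, and with shLITATS1-2, 7 rose and 8 fell, beside 27.8% and 28.9%. The 7 include AQP7, which passed the count filter only through the shLITATS1-2 libraries. GRIP2, which overlaps SLC6A6 on the opposite strand, rose by 1.66 (SE 0.26, edgeR adjusted p = 9.04e-08) with shLITATS1-1 and was at 0.13 (SE 0.33, edgeR adjusted p = 0.768) with shLITATS1-2, at 33 to 43 fragments per library with shLITATS1-1, 11 to 17 with shLITATS1-2 and 11 to 15 with shNT. Next to SLC4A4, DCK was at -0.05 (SE 0.053, edgeR adjusted p = 0.376) with shLITATS1-1 and fell by 0.51 (SE 0.055, edgeR adjusted p = 5.36e-13) with shLITATS1-2. The nearest tested neighbour of AQP3, NOL6, fell by 0.18 (SE 0.037, edgeR adjusted p = 2.22e-05) with shLITATS1-1 and by 0.22 (SE 0.036, edgeR adjusted p = 2.48e-07) with shLITATS1-2. Next to SLC51B, MTFMT was at -0.03 (SE 0.058, edgeR adjusted p = 0.653) with shLITATS1-1 and fell by 0.61 (SE 0.061, edgeR adjusted p = 7.33e-14) with shLITATS1-2.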

How the data were processed

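RNA of 9 A549 libraries was sequenced, and the sample titles gave groups and replicate numbers. The authors deposited 1 table of unnormalized counts of fragments per gene. FastQC, cutadapt 2.10, STAR 2.7.5a and HTSeq 0.12.4 with GRCh38 were used, per the submitters' processing notes. Counter lines that name no gene held 19.0% to 20.3% of fragments and entered neither library sizes nor tests. Replicates differed by more than sampling noise in all 9 pairs (chi-square per degree of freedom 1.47 to 2.72).

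The filterByExpr function (minimum count 10) kept 15500 genes. All 9 libraries entered 1 edgeR quasi-likelihood fit (TMM, glmQLFit robust, 6 residual degrees of freedom), tested two-sided with Benjamini-Hochberg adjustment over all tested genes at 0.05. Standard errors are the absolute log2 fold change, taken without the prior count, divided by the square root of the F statistic. The printed log2 fold changes include the prior count. Folds of genes near 0 depend on the prior count. The 6 genes and the gene lists were chosen with earlier results of these data known, and comparisons with shNT share its 3 libraries. Named genes are the 6, their closest relatives, up to 6 called genes per list, extremes of the carrier group, the 3 likest genes and called neighbours, and only some of them are described. NFAT5, CSAD, ABCC3, CA12 and SCNN1A are described as well, although this choice did not take them. Likeness used genes whose mean log2 CPM reached 1. The procedure was tested on simulated data. Gene models were GENCODE 29, promoter windows RefSeq GRCh38.p14. Tools were R 4.3.3, edgeR 4.0.16, DESeq2 1.42.0, Python 3.11.15, numpy 2.4.6 and pandas 2.3.3. Alternatives were DESeq2, its size factors, library-size scaling, no filter, a filter of 50 counts, a replicate block, fits of 6 libraries, a threshold of 0.01 and leaving out each library.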

Additional observations from a re-analysis of the deposited data

How the results depend on the processing

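Among the 17 alternatives, the threshold of 0.01 cannot change a fold change. Under all the others the log2 fold changes of the 6 genes kept their sign. Of these 288 values, 4 moved by more than the spread between replicates, all under scaling by library size. There SLC6A6 was -1.69 with shLITATS1-2 and 0.52 between the hairpins, and AQP3 was 0.94 with shLITATS1-2 and -2.86 between the hairpins. This scaling moved the median of all genes to 0.11 for shLITATS1-2 minus shNT and to -0.15 between the hairpins, a shift that these 4 values share. It gave 2967 genes lower and 6058 higher with shLITATS1-2 (4485 and 4302 with TMM), 60 lower carriers and channels (93 with TMM), 48 lower solute carriers (75), 4 lower osmolyte genes (7) and, for bile acid genes, 5 higher and 0 lower (3 and 3). A filter of 50 counts left 5 of 9 higher bile acid genes and 1 of 3 higher KCNJ genes with shLITATS1-1, 6 of 10 lower potassium channels, 1 of 2 higher and 1 of 2 lower KCNJ genes with shLITATS1-2, and no called aquaporin, since fewer genes were tested. The fit of 6 libraries gave 1 higher KCNJ gene with shLITATS1-2. Counts higher with shLITATS1-2 for bile acid, aquaporin and sugar genes were 0, 1 and 3 in DESeq2 and 0, 1 and 3 at a threshold of 0.01, and 1 bile acid and 1 aquaporin gene without a filter. Of 327 values of named genes, 53 changed their call under at least 1 alternative, and the cause was not tested. NFAT5, CSAD, ABCC3, CA12 and SCNN1A are not among these values.

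Same-numbered libraries of different groups did not deviate together (correlations of -0.188 to 0.0795), so the replicate numbers were not taken as pairs. With the replicate number as a block, 134 carriers and channels rose and 76 fell with shLITATS1-1, and 106 rose and 93 fell with shLITATS1-2. The lists counted above changed by at most 2 genes in a direction. Genes near 10 counts, such as KCNJ15, SLC6A14 and AQP7, are limited by depth.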
